A study of Mus musculus with 12 samples.

Results

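The comparison described here sets mouse CD8 T cells cultured with transforming growth factor beta (TGFβ) against the same kind of culture without it. It uses 6 of the 12 libraries of the series, taken by their titles: 3 from cells given IL-2, IL-15 and TGFβ (the TGFβ group) and 3 from cells given IL-2 and IL-15 alone (the control group). CD8 T cells are lymphocytes whose task is killing infected and malignant cells. Here they came from the spleen of C57BL/6 mice, with RNA taken on day 7. The other 6 libraries came from cultures that also held all-trans retinoic acid (RA), a vitamin A metabolite, in 3 cases without and in 3 with TGFβ. All 4 groups received IL-2 and IL-15, growth and survival cytokines of this cell type. The sources used here do not give doses, the age or sex of the mice, or how the cells were activated. The labels speak of biological replicates without tying them to separate animals. The spread behind each p-value is thus that of these samples alone, and part of it may be technical. The series title names a culture model of tissue-resident memory cells, which lodge in a tissue without returning to blood.

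TGFβ binds a receptor built from the kinases Tgfbr1 and Tgfbr2, which phosphorylate Smad2 and Smad3, and these enter the nucleus together with Smad4. The pathway switches on its own brakes, among them Smad7, Skil, Ski, Pmepa1 and Ldlrad4. In CD8 T cells that lodge in epithelia, TGFβ is known for raising the integrin CD103 (Itgae), which binds E-cadherin, and for lowering the T-box factors Tbx21 and Eomes and killing genes. In CD4 T cells it is known for inducing Foxp3, the factor that defines regulatory T cells.

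The 6 libraries held 23710238 to 33477037 counts assigned to genes, and 14009 genes had enough counts to be tested. Values are CPM (counts per 1000000 counts of a TMM-scaled library, given in the order of replicates 1 to 3), and differences are log2 fold changes ± SE of the TGFβ group over the control group, with n = 3 per group. A gene is said to have risen or fallen where edgeR's quasi-likelihood test gave a Benjamini-Hochberg adjusted p under 0.05 over all tested genes. In RNA from a whole culture, fewer cells of a type and less RNA per cell cannot be told apart. The first principal component of the 6 libraries carried 79.1% of the variance and placed the control libraries at -45.9 to -40.4 and the TGFβ libraries at 42.8 to 44.4. Control replicate 1 stood apart from the other 2 control libraries, at 10.1 and 13.7 in the chi-square statistic divided by its degrees of freedom, where the other pairs of replicates gave 4.03 to 5.87.

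The cells carried the RNA of CD8 T cells in each library. Cd8a, a chain of the CD8 co-receptor, was at 989, 1300.4 and 1283 CPM in the control libraries and at 2483, 2415 and 2457 in the TGFβ libraries, and its partner Cd8b1 was at 884, 1011 and 1048 against 1718, 1599 and 1656. Both rose, by 1.04 ± 0.11 and 0.76 ± 0.07, while the T cell receptor chain gene Trac kept a fold change of 0.00 ± 0.05 (adjusted p = 0.981, not called). Markers of other cell types ranged from scarce to clearly present. At the low end, 9 of 10 neutrophil markers, 7 of 10 macrophage markers and 5 of 10 B cell markers, among them Ms4a1 and Pax5, had at most 3 counts in each of the 6 libraries, and the plasma cell markers Mzb1 and Tnfrsf17 did too. Summed CPM of the CD4 T cell markers went from 192 to 205 to 72.4 to 77.5 and all 4 fell, and those of NK cells, a list that holds Eomes, went from 118 to 194 to 34.8 to 46.04 with 4 of 7 tested members lower and 0 higher. Summed CPM of gamma delta T cell markers went from 165 to 226 to 442 to 485, with the Tcrg constant genes higher and Trdc, the delta constant gene, lower (-0.70 ± 0.23). Trdc lost its call with the Wald test of DESeq2, without control replicate 2 and without TGFβ replicate 1 or 3. For the other lists the sums were 14.99 to 18.5 against 28.3 to 30.8 for B cells (1 higher, 1 lower of 3 tested), 87.02 to 91.7 against 106 to 109 for plasma cells (3 higher of 3), 157 to 239.6 against 64.7 to 69.01 for dendritic cells (1 higher, 2 lower of 3) and 96.3 to 109 against 65.4 to 73.95 for stromal and endothelial cells (1 higher, 2 lower of 4). Macrophage markers summed to 8.75 to 10.4 against 9.002 to 11.2 (1 tested, not called), neutrophil markers to at most 0.153 CPM in any library (0 tested), and erythroid and platelet markers to 6.06 to 6.72 against 20.2 to 34.4 (3 higher of 3). The myeloid gene Lyz2 had 1 control count in all and 29 with TGFβ, a ratio of 32.2 (95% interval of counting error, 5.34 to 1316). The platelet marker Ppbp, with 3 control counts in all and 26 with TGFβ, may have entered the test only through libraries where it was high. Mast cell markers are given with the proteases below. The part that other cell types had in the results was not tested.

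TGFβ changed a large share of the genes. Of the 14009 tested, 6034 (43.1%) were called, 2899 higher (20.7%) and 3135 lower (22.4%), and 681 (4.86%) rose and 607 (4.33%) fell by 2-fold or more. These shares are the background for each count of a gene list given here. A gene with few control counts may have entered the test only through libraries where it was high. It could then only be called higher, which limits the counts of lists that hold such genes. Where the median fold change of a list moved by over 1.5 times or turned sign in an alternative, its lowest and highest values over the 13 alternatives follow it. The groups did not overlap for 56.1% of tested genes (27.4% higher and 28.7% lower with TGFβ), the background for each statement of overlap. The median fold change over all tested genes was 0.001. With library totals in place of TMM scaling, 60.3% of the calls were higher in TGFβ, against 48.0% with TMM. The plot of all tested genes shows both directions over the whole range of expression.

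**Figure D1:**
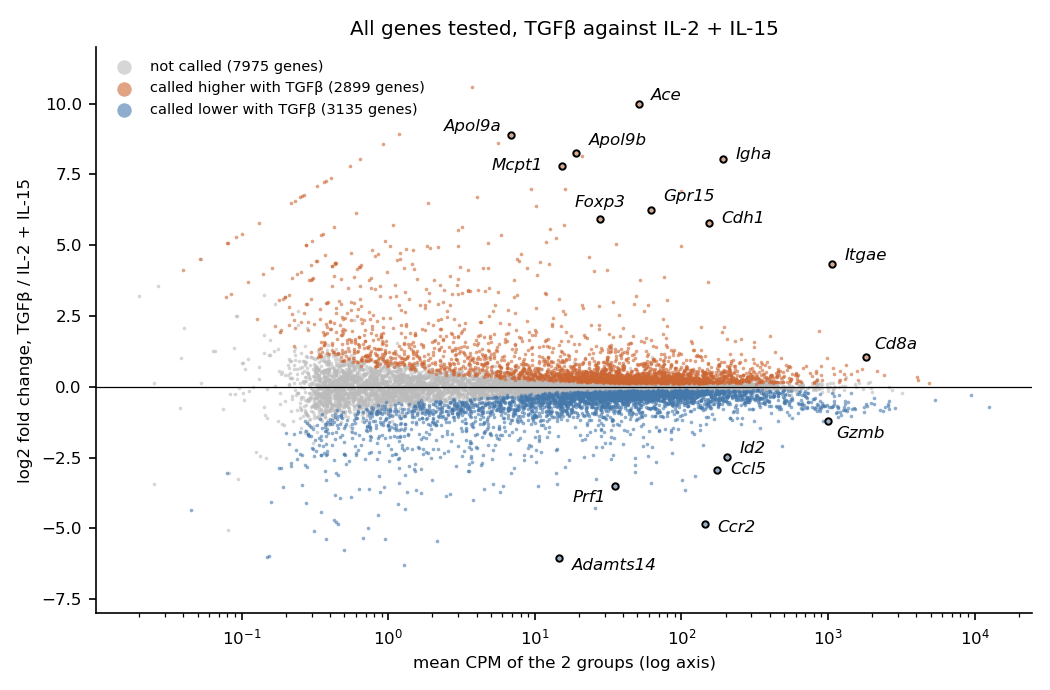
Log2 fold change (TGFβ over IL-2 + IL-15, vertical axis) of each of the 14009 tested genes against its mean CPM over both groups (horizontal log axis), with called genes in colour and 16 genes named. Ace, at 9.99, is the highest of the named points and Adamts14, at -6.03, the lowest.

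Ace encodes angiotensin-converting enzyme, a peptidase of the cell surface. It rose most among genes averaging 5 CPM or more over both groups and without overlap, leaving out predicted and RIKEN clone genes. It was at 0.113, 0.0407 and 0.123 CPM in the control libraries and 116, 91.7 and 98.1 in the TGFβ libraries, a fold change of 9.99 ± 0.18 (adjusted p = 4.33e-13, ENSMUSG00000020681, chromosome 11, 105967945 to 105989964, GRCm38). Its counts were 3, 1 and 4 against 3035, 2230 and 2449. With so few control counts, this SE, derived from the test statistic, understates the counting error. It can do so for other genes with few counts in 1 group. Adcy5, an adenylyl cyclase that makes cyclic AMP, went from 0.225, 0.0814 and 0.123 to 48.3, 39.9 and 37.9 CPM (8.15 ± 0.25), and Agap1, an ARF GTPase-activating protein, from 0.263, 0.244 and 0.246 to 29.6, 32.6 and 34.1 (6.97 ± 0.27). Gja5, a gap junction protein, went from 2.44, 0.895 and 1.597 to 213, 188 and 194 CPM (6.90 ± 0.60). These 4 genes were picked among those whose groups did not overlap, so their lack of overlap is no separate result.

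The paralogs Apol9a and Apol9b, members of the apolipoprotein L family that lie on opposite strands of chromosome 15, rose together. Apol9a had 1, 0 and 1 counts in the control libraries and 367, 287 and 379 in the TGFβ libraries, a ratio of summed counts of 574 (95% interval of counting error, 158 to 4746). Apol9b went from 0.1502, 0.0407 and 0.154 to 38.3, 37.7 and 38.2 CPM (8.26 ± 0.20, adjusted p = 7.70e-12). Because the 2 genes are near copies, the counting may have split reads between them, so the level of each is uncertain. The 250 bases before their starts, chosen after the values were seen, are printed to show the copy: they share an identical run of 182 bases, the first 182 bases of the Apol9a sequence and the last 182 of the Apol9b sequence. Sequences here are RefSeq promoters of GRCm38.p6, 5′ to 3′ on the strand of the gene, with motif matches on either strand in capitals. The capitals in Apol9a mark a match to the AP-1 site TGANTCA, which 3.97% of the 9595 tested genes with a promoter in the RefSeq table also hold. This match lies after the shared run, in a stretch that the printed Apol9b sequence does not reach. Its absence there thus shows no difference between the copies. In GENCODE, Apol9a starts further upstream, at 77411135, so the match lies within that gene.
Apol9a, chr15:77411035-77411284, minus strand: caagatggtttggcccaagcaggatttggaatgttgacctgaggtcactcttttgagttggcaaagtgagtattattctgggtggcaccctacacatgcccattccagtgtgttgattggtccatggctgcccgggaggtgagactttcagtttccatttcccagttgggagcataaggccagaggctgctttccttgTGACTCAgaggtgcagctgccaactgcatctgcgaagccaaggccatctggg
Apol9b, chr15:77728822-77729071, plus strand: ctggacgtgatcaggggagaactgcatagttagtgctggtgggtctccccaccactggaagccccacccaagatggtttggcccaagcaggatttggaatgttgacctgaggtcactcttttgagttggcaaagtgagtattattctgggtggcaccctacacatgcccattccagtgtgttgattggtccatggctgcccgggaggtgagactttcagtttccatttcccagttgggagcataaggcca

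Among genes averaging 5 CPM or more over both groups and without overlap, leaving out predicted and RIKEN clone genes, the strongest decline belonged to Adamts14, a secreted protease that trims procollagen. It was at 40.4, 26.4 and 20.1 CPM in the control libraries and 0.306, 0.452 and 0.561 in the TGFβ libraries (-6.03 ± 0.53, adjusted p = 1.17e-06). Ccr2, the receptor for the monocyte chemoattractant Ccl2, went from 331, 267 and 240.3 to 12.4, 7.73 and 8.97 CPM (-4.84 ± 0.23, chromosome 9, 124101950 to 124113557). By that choice, every TGFβ library of both genes lay below every control library. By the same rule, the other 8 of the 10 largest declines were Nhsl2 (-3.71 ± 0.36), the membrane protein gene Ms4a4c (-3.65 ± 0.18), the NK receptor gene Klrb1c (-3.52 ± 0.54), Tnfsf14, which encodes the cytokine LIGHT (-3.51 ± 0.21), Prf1 (-3.49 ± 0.32), Edaradd (-3.42 ± 0.20), Heatr9 (-3.41 ± 0.19) and the serpin gene Serpinb6b (-3.40 ± 0.22).

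The TGFβ pathway itself moved mostly upward in its receptors and brakes. Of 18 tested ligand and receptor genes (of 20 listed), 8 rose and 1 fell, with a median fold change of 0.12 (0.11 without control replicate 2 to 0.18 with library totals), and of 21 tested SMAD and feedback genes (of 24), 11 rose and 4 fell, with a median of 0.55. Tgfbr2, the receptor that binds the ligand first, was at 183, 187 and 186 CPM in the control libraries and 359.7, 344 and 363 with TGFβ (0.94 ± 0.05). Tgfbr3, the co-receptor betaglycan, went from 19.5, 30.2 and 30.4 to 82.1, 84.6 and 97.6 (1.72 ± 0.22), and the activin receptor gene Acvr2a from 5.41, 4.64 and 3.8996 to 27.5, 25.3 and 28.9 (2.56 ± 0.15). The groups did not overlap for these 3 genes, as for 56.1% of all tested genes. Tgfbr1, the signalling partner of Tgfbr2, had a fold change of 0.06 ± 0.08 (adjusted p = 0.561, not called), and the ligand gene Tgfb1 one of 0.11 ± 0.06 (adjusted p = 0.181, not called). With library totals in place of TMM, Tgfb1 was called at 0.17. The single member that fell was Nrros, which holds latent TGFβ at the surface of myeloid cells (-1.61 ± 0.07).

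The brakes of the pathway rose with little spread between replicates. Ldlrad4, which keeps SMADs from the receptor, was at 9.99, 9.52 and 9.64 CPM in the control libraries and 144, 142 and 141 with TGFβ (3.87 ± 0.08, adjusted p = 8.21e-13), and 52.1% of its exon bases are also exons of a gene on the other strand. Pmepa1, which does the same at endosomes, went from 13.1, 14.1 and 14.6 to 107, 98.8 and 108 CPM (2.91 ± 0.07, adjusted p = 7.70e-12). Skil, a nuclear repressor of SMADs that TGFβ first degrades and then induces, went from 79.5, 77.2 and 78.3 to 311, 300.4 and 286 CPM (1.93 ± 0.06). The groups did not overlap for any of the 3 genes, as for 56.1% of all tested genes. The replicates of a group lay close together. Smaller rises were those of Smurf2, a ubiquitin ligase of the receptor (1.31 ± 0.06), Ski (1.09 ± 0.05) and Smad7 (0.93 ± 0.07). The transducer Smad3 went the other way, from 80.8, 85.1 and 86.5 to 24.5, 23.9 and 26.1 CPM (-1.76 ± 0.06, adjusted p = 9.20e-11), while Smad2 (-0.11 ± 0.06) was not called. Of the ID factors, which block E proteins, Id2 went from 399.8, 330.1 and 306 to 66.7, 56.1 and 62.3 CPM (-2.48 ± 0.14) and Id3 from 23.9, 23.6 and 24.1 to 55.7, 43.4 and 43.6 (0.997 ± 0.12), so that the first fell and the second rose in all libraries compared.

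The 16 panel genes are plotted by library, and 15 of them show no overlap between the groups, as do 56.1% of all tested genes.

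**Figure D2:**
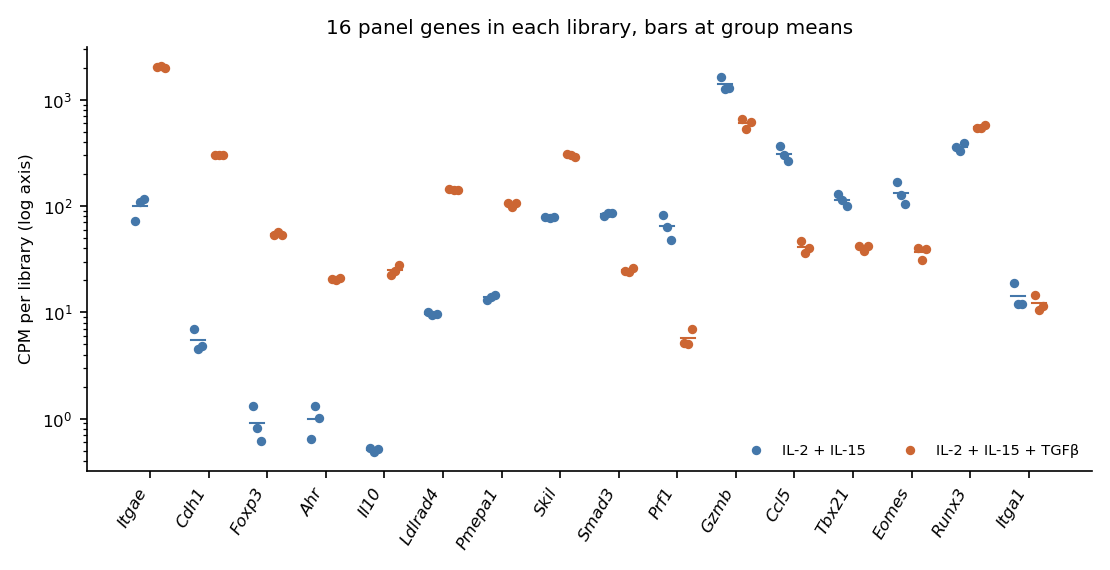
CPM of 16 genes in each of the 6 libraries (log axis), with a point per library in the order of replicates 1 to 3 and a bar at the group mean. Itgae reaches 2001 to 2062 CPM with TGFβ against 72.3 to 117 without, and Itga1 is the gene whose groups overlap.

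Itgae, the αE chain of the integrin CD103, rose from 72.3, 109 and 117 CPM to 2021, 2062 and 2001, a fold change of 4.35 ± 0.25 (adjusted p = 2.30e-08, ENSMUSG00000005947, chromosome 11, 73090583 to 73147446). The 3 TGFβ libraries lay close together and far above the 3 control libraries. Its partner chain Itgb7 went from 924, 984 and 1018 to 1529.5, 1389.7 and 1437 CPM (0.57 ± 0.06). Cdh1 encodes E-cadherin, the junction protein that CD103 binds on epithelial cells, and its RNA went from 6.99, 4.52 and 4.79 to 304, 301 and 302 CPM in these T cells (5.80 ± 0.31, adjusted p = 9.89e-09). Of 26 residency genes, all tested, 17 rose and 5 fell, with a median of 0.92. Other members that rose were Nt5e, the ectoenzyme CD73 (2.13 ± 0.07), Cd101 (2.09 ± 0.09), the adhesion receptor gene Adgrg1 (5.05 ± 0.20) and Hpgds, the haematopoietic prostaglandin D synthase (2.87 ± 0.10). Not all residency genes followed. Cd69, which opposes tissue exit, was at 28.8, 28.7 and 24.9 CPM in the control libraries and 25.4, 21.8 and 20.8 with TGFβ (-0.27 ± 0.08, adjusted p = 0.0171). The call of Cd69 was lost in the fits without control replicate 1 or 2 and without TGFβ replicate 2 or 3 (adjusted p of 0.0624 to 0.0817), and its groups overlapped. Zfp683, which encodes the residency factor Hobit, went from 3.76, 4.31 and 5.71 to 1.72, 1.64 and 1.72 CPM (-1.44 ± 0.17), and Itga1, the collagen-binding CD49a chain, from 18.8, 12.04 and 12.1 to 14.5, 10.4 and 11.5 (-0.23 ± 0.28, adjusted p = 0.536, not called).

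Genes of circulation and tissue exit did not fall as a group: 6 of 21 tested members (of 22) rose and 5 fell, with a median of 0.04 (0.02 without TGFβ replicate 2 to 0.13 without control replicate 3). Klf2, the factor that drives exit genes, rose from 76.8, 85.3 and 105 to 198, 172 and 183 CPM (1.05 ± 0.27). Its target S1pr1, the receptor that draws T cells out of tissue, was at 279.7, 287 and 299 against 328, 298 and 303 (0.10 ± 0.11, adjusted p = 0.467, not called). Control replicate 1 was the lowest control library for Klf2, and its groups did not overlap. The list also holds Itgb1, an integrin chain, which fell (-1.09 ± 0.09), and the effector receptor gene Cxcr3, which fell too (-0.68 ± 0.10). Cx3cr1, the fractalkine receptor of circulating killer cells, went from 0.376, 0.732 and 0.676 to 14.02, 15.01 and 17.5 CPM (4.69 ± 0.26).

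Of 13 tested homing and chemokine receptor genes (of 18), 6 rose and 5 fell (median 0.04; -0.16 without control replicate 3 to 0.26 without control replicate 1). Gpr15, a receptor that brings T cells to the large intestine, went from 1.35, 1.59 and 1.78 to 154, 111 and 101 CPM (6.26 ± 0.17, adjusted p = 2.17e-11), and 12.5% of its exon bases are exons of a gene on the other strand. Ccr9, the receptor for homing to the small intestine, went from 3.04, 3.95 and 5.005 to 13.9, 18.01 and 16.5 (1.99 ± 0.19), and Ccr8, a receptor of skin and regulatory T cells, from 1.24, 0.936 and 1.597 to 7.93, 8.72 and 11.8 (2.89 ± 0.22). All 3 TGFβ libraries were above all 3 control libraries for each of them, as for 27.4% of all tested genes. Gpr15 was among the 10 highest genes, picked without overlap, so for Gpr15 this is no separate result. Cxcr6, a residency receptor, was not called (0.21 ± 0.11; adjusted p = 0.0312 with the replicate number as a block), and the α4 integrin gene Itga4 fell by a little (-0.45 ± 0.13, adjusted p = 0.0142; 0.0659 without control replicate 3).

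Integrins and adhesion partners moved both ways. In the list of 22 integrins and adhesion partners, all tested, 8 rose and 11 fell, with a median of -0.35 (-0.41 without control replicate 3 to -0.21 without control replicate 1). The LFA-1 chain Itgal went from 1695, 1641 and 1616 to 939, 932 and 967 CPM (-0.80 ± 0.07) and Itgax, the CD11c chain, from 154, 99.4 and 91.5 to 20.2, 16.9 and 18.2 (-2.64 ± 0.23). Both fell in all libraries compared. Cd96, a receptor for nectin-like proteins, rose from 150.2, 163 and 154 to 471, 465 and 465 CPM (1.58 ± 0.05). Of 16 tested epithelial-type junction genes (of 24 found), 7 rose and 0 fell (median 0.54). Beside Cdh1 they included Tjp1, a tight junction scaffold, at 10.6, 5.45 and 4.18 against 53.2, 41.5 and 48.5 CPM (2.84 ± 0.40), and Ctnnb1, which encodes β-catenin (0.43 ± 0.06). Jam2 had 1, 1 and 1 counts in the control libraries and 12, 20 and 10 with TGFβ, a ratio of 15.6 (95% interval of counting error, 4.97 to 78.5). It may have entered the test only through libraries where it was high.

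Matrix and protease genes moved both ways, with 9 of 21 tested members (of 33) higher, 7 lower and a median of 0.51. Timp2, an inhibitor of metalloproteases, went from 0.789, 0.6102 and 1.26 to 15.9, 17.7 and 16.98 CPM (4.20 ± 0.18), and Adam19, a sheddase, rose by 0.89 ± 0.08. Adam8 fell (-1.05 ± 0.15). Enzymes that build selectin ligands gave 6 higher and 8 lower of 25 tested (of 26), with a median of -0.08 (-0.13 without TGFβ replicate 1 to 0.02 without control replicate 1). Gcnt1, which starts core 2 branches on O-glycans, went from 4.47, 3.78 and 4.24 to 16.1, 13.6 and 15.1 CPM (1.84 ± 0.15), and the sialyltransferase gene St3gal1 fell by 1.02 ± 0.06 on the log2 scale.

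Prf1 and Gzmb fell while Gzma rose. Prf1, which encodes the pore former perforin, was at 81.6, 63.9 and 47.6 CPM in the control libraries and 5.17, 5.06 and 6.97 with TGFβ (-3.49 ± 0.32, adjusted p = 1.62e-06, chromosome 10, 61297833 to 61304680). Gzmb, the granzyme that triggers apoptosis, went from 1652, 1267 and 1289 to 664, 531 and 618 CPM (-1.21 ± 0.23), and Gzma, another granule protease, rose from 181, 165 and 198 to 625, 561 and 694 (1.79 ± 0.31). In Prf1, Gzmb and Ccl5, control replicate 1 had the highest value, and each TGFβ library lay below the lowest control library. Prf1, a panel gene, was also among the 10 largest declines, picked without overlap. Of 20 tested granzyme, perforin and granule genes (of 21), 6 rose and 7 fell, all 7 by 2-fold or more (median 0.04; 0.01 without control replicate 2 to 0.11 with library totals). The granule proteases Ctsw (0.67 ± 0.06) and Ctsc (0.53 ± 0.05), of which the second activates granzymes, and the granule proteoglycan gene Srgn (0.65 ± 0.07) rose. Cst7, an inhibitor of Ctsc, fell (-1.54 ± 0.12). Serpins, protease inhibitors that can protect killer cells from their own granzymes, gave 4 higher and 6 lower of 11 tested (of 16), with a median of -0.44. Serpinb9, the granzyme B inhibitor, went from 94.7, 80.4 and 72.6 to 14.2, 14.2 and 14.5 CPM (-2.53 ± 0.15), while Serpina3g, a cathepsin inhibitor, rose from 74.6, 60.1 and 81.5 to 278, 334 and 333 (2.13 ± 0.14).

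Il10, the anti-inflammatory cytokine, rose from 0.526, 0.488 and 0.522 CPM to 22.4, 24.4 and 27.7 (5.58 ± 0.24, adjusted p = 1.70e-09, chromosome 1, 131019845 to 131024974). The 3 control libraries held 12 to 17 counts of it and the 3 TGFβ libraries 584 to 692, without overlap. Tnfsf11, which encodes RANKL, rose as well, from 4.02, 2.64 and 2.395 to 13.4, 9.71 and 12.8 CPM (1.99 ± 0.20). In the list of cytokines and death ligands, 5 of 19 tested members (of 30) rose and 8 fell, with a median of -0.03 (-0.22 with the 6 libraries alone to 0.10 without control replicate 1). Without control replicate 1 the count that rose was 8. Lower members were Tnfsf14 at 23.7, 18.1 and 15.7 against 1.302, 1.44 and 2.28 CPM, Tnfsf8, the CD30 ligand (-1.59 ± 0.10), and Osm, oncostatin M (-0.98 ± 0.07). Ifng, the signature cytokine of killer T cells, was not called. It was at 29.2, 2.64 and 3.16 CPM in the control libraries and 9.42, 7.24 and 7.49 with TGFβ (-0.53 ± 0.66, adjusted p = 0.554), and the high value of control replicate 1 set its direction, since without that library the fold change was 1.46 (adjusted p = 0.00328). Ccl3 showed the same layout, at 10.9, 0.366 and 1.11 against 2.45, 1.77 and 2.32 CPM (-0.90 ± 0.77, adjusted p = 0.369; 1.49 and 0.0157 without control replicate 1).

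Ccl5, a chemokine that killer T cells store and release, fell from 365, 304 and 263 to 46.9, 35.9 and 40.1 CPM (-2.92 ± 0.22, adjusted p = 3.15e-07). Its neighbour on chromosome 11, Heatr9, went from 31.3, 24.5 and 21.8 to 2.53, 2.92 and 1.802 CPM (-3.41 ± 0.19). The groups of both genes were far apart, though Heatr9 was among the 10 largest declines, picked without overlap. Heatr9 was counted with the chemokines, of which 2 of 9 tested (of 20 listed) rose and 2 fell. The median of this list was -0.42 (-0.76 without control replicate 2 to 0.51 without control replicate 1), and the count that rose was 0 in the fit of the 6 libraries alone and 1 in several others. Of 23 tested killer lectin-like and NK receptor genes (of 27), 8 rose and 9 fell (median -0.50; -0.72 without control replicate 3 to -0.16 without control replicate 1; 5 higher in 3 of the fits that left out 1 library). Klri2 went from 10.9, 10.7 and 7.15 to 89.3, 95.2 and 81.1 CPM (3.22 ± 0.20), and Klrd1, the CD94 partner of inhibitory NKG2A, rose by 0.53 ± 0.06. The Ly49 genes Klra7 (-1.52 ± 0.17) and Klra1 (-1.42 ± 0.16) fell, but their near-identical copies make the counts of each uncertain.

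The factors that drive effector fate fell more often than they rose, 16 lower against 8 higher of 28 tested (of 30), with a median of -0.42. Tbx21, which encodes T-bet, was at 129, 113 and 100.2 CPM in the control libraries and 41.8, 37.4 and 41.8 with TGFβ (-1.498 ± 0.12, adjusted p = 6.63e-07). Eomes, the other T-box factor, went from 166, 126 and 104 to 40.1, 31.01 and 39.8 CPM (-1.84 ± 0.22). Each was highest in control replicate 1, and neither showed overlap between the groups. Nfil3 (-2.43 ± 0.13), Bhlhe40 (-1.53 ± 0.16), Runx1 (-1.36 ± 0.13), Gata3 (-0.91 ± 0.09) and Zeb2 (-1.28 ± 0.22) fell too. Among those that rose were Runx3, which keeps CD8 expression on and is known in residency, from 361, 327 and 389.8 to 539, 547 and 577 CPM (0.63 ± 0.07), Prdm1, which encodes Blimp1 (0.69 ± 0.11), and Irf8 (1.39 ± 0.08). Factors of memory and stemness were split, 10 higher and 9 lower of 28, all tested, with a median of -0.01 (-0.09 without control replicate 1 to 0.05 with library totals). Ikzf3 rose (0.84 ± 0.05), Satb1 (-0.94 ± 0.06) and Zbtb7b, the CD4 lineage factor ThPOK (-1.12 ± 0.10), fell, and Tcf7, the factor of memory precursors, was at 948, 1232 and 1300.0 against 966, 1010.3 and 1012 CPM (-0.22 ± 0.21, adjusted p = 0.416, not called).

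Foxp3, the lineage factor of regulatory T cells, was at 1.31, 0.814 and 0.614 CPM in the control libraries and 52.8, 57.2 and 53.1 in the TGFβ libraries (5.91 ± 0.20, adjusted p = 1.57e-10, ENSMUSG00000039521, chromosome X, 7573644 to 7595245). Counts were 35, 20 and 20 against 1378, 1391 and 1325, so that the groups were far apart at both ends, and 18.7% of the exon bases of Foxp3 are exons of a gene on the other strand. Its relatives in regulatory T cells Ikzf4 and Ikzf2, which encode Eos and Helios, went from 13.2, 15.7 and 15.5 to 86.98, 99.4 and 99.8 CPM (2.69 ± 0.10) and from 60.7, 50.7 and 60.5 to 189, 179.5 and 159 (1.61 ± 0.13). Of 26 tested regulatory T cell genes (of 27), 11 rose and 7 fell, with a median of 0.33. Icos (0.45 ± 0.06), Ctla4 (0.49 ± 0.11) and Entpd1, the ectoenzyme CD39 (0.84 ± 0.18), rose. The marker genes Nrp1 (-0.67 ± 0.15) and Tnfrsf4 (-0.67 ± 0.08) fell, Lrrc32 was not called (-0.23 ± 0.20), and Cd4 was at 1.01, 1.55 and 1.47 against 0.574, 0.329 and 0.2803 CPM (-1.75 ± 0.37). The Foxp3 sequence before its RefSeq start is printed because SMADs bind CAGAC. It holds 1 match, 67 bases before that start (capitals, on the minus strand). In GENCODE, Foxp3 starts further upstream, at 7573644, so the printed stretch lies within that gene. CAGAC is a common word: 41.0% of all tested genes with a promoter hold it, and it stood in 41.0% of the 437 that rose by 2-fold or more and in 42.9% of the 406 that fell so.
Foxp3, chrX:7579426-7579675, plus strand: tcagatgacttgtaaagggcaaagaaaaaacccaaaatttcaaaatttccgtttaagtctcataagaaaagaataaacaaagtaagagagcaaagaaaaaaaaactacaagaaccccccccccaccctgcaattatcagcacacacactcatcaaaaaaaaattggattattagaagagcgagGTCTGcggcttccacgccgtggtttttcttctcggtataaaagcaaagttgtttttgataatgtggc
The longer form CAGACA stood in 16.2% of those that rose by 2-fold or more, 13.1% of those that fell so and 13.0% of all tested. The GC-rich form GGCGC stood in 45.1%, 42.6% and 56.2% in the same order, and the AP-1 site in 7.78%, 7.14% and 3.97%.

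The aryl hydrocarbon receptor, a sensor of dietary and microbial ligands, rose with its feedback genes. Ahr was at 0.639, 1.302 and 1.01 CPM in the control libraries and 20.6, 20.3 and 21.2 with TGFβ (4.39 ± 0.18, adjusted p = 1.43e-09). Its repressor Ahrr went from 0.263, 0.773 and 0.706 to 36.5, 27.8 and 28.3 CPM (5.71 ± 0.27), and Tiparp, which represses it by ADP-ribosylation, from 13.9, 16.6 and 18.6 to 44.01, 36.9 and 36.2 (1.25 ± 0.10). All TGFβ libraries lay above all control libraries for the 3 genes, as for 27.4% of all tested genes. In the list, 6 of 11 tested members (of 16) rose, all by 2-fold or more, and 1 fell (median 1.10). The promoters of Ahrr and Tiparp are printed for GCGTG, the core that Ahr binds with its partner, a motif chosen after the values were known. Ahrr holds 3 matches (107, 82 and 27 bases before the start) and Tiparp 1 (170 bases before it, on the minus strand). One match or more is found in 46.0% of tested genes with a promoter and 3 or more in 5.7%. Among genes that rose or fell by 2-fold or more, 1 match or more was less common, at 35.9% and 36.0%.
Ahrr, chr13:74292332-74292581, minus strand: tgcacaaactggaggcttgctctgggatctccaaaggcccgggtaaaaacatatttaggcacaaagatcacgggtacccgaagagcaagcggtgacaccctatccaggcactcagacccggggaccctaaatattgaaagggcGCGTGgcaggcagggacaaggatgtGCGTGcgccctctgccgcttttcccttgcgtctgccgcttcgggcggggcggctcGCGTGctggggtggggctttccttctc
Tiparp, chr3:65528197-65528446, plus strand: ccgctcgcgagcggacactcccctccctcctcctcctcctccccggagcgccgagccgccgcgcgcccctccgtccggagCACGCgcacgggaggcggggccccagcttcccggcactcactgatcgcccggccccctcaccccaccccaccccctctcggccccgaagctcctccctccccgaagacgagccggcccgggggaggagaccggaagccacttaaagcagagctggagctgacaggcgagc
Retinoid receptor and metabolism genes moved upward without added RA: 7 of 11 tested members (of 21) rose and 2 fell, with a median of 0.57 (4 rose without TGFβ replicate 2). The receptors Rara (0.60 ± 0.07) and Rarg (0.62 ± 0.06) rose, and their partners Rxra, at 6.76, 6.39 and 6.72 against 3.83, 2.55 and 3.48 CPM (-1.01 ± 0.19), and Rxrb (-0.18 ± 0.04) fell.

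Notch genes gave 7 higher and 1 lower of 18 tested (of 26), with a median of 0.14. Hey1, a Notch target, had 1, 0 and 0 counts in the control libraries and 23, 15 and 14 with TGFβ, a ratio of 57.8 (95% interval of counting error, 9.92 to 2326). Nrarp, a target that feeds back on Notch, rose by 1.45 ± 0.12, with 79.4% of its exon bases under exons of the other strand. Dtx1, also a target, was at 18.7, 26.3 and 24.4 against 10.7, 11.9 and 11.1 CPM and fell (-1.05 ± 0.21). DNA methylation and Polycomb genes gave 5 higher and 8 lower of 26, all tested (median -0.06; -0.07 without TGFβ replicate 1 to 0.0053 with library totals, where 9 were higher). Ezh2 (-0.52 ± 0.05) and Dnmt1 (-0.44 ± 0.06) fell and Dnmt3b rose (0.65 ± 0.07). AP-1, EGR and NR4A genes gave 7 higher and 10 lower of 25 tested (of 26), median -0.12 (-0.28 without TGFβ replicate 3 to -0.02 without control replicate 3). Jun went from 26.3, 30.8 and 32.1 to 88.1, 92.3 and 102 CPM (1.66 ± 0.07) and Fos from 0.714, 0.6102 and 0.706 to 4.86, 3.701 and 4.52 (2.68 ± 0.23), while Fosl2 (-1.18 ± 0.13) fell. NF-kB genes gave 5 higher and 6 lower of 24, all tested (median 0.05; 0.02 without control replicate 1 to 0.11 with library totals, where 10 were higher), with the brakes Tnfaip3 (0.62 ± 0.05) and Nfkbie (0.50 ± 0.06) among those that rose.

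At the cell surface, 9 of 19 tested genes of the common gamma chain cytokine receptors and their signalling (of 21) rose and 2 fell (median 0.13; 0.12 without control replicate 2 to 0.19 with library totals). Il2rg, the shared chain, went from 526, 529 and 550.1 to 714, 676 and 708 CPM (0.39 ± 0.06), and the IL-2 and IL-15 receptor chain Il2rb was at 1126, 919 and 918 against 1178, 984 and 1054 (0.12 ± 0.12, adjusted p = 0.433, not called). The feedback genes Socs1 (0.90 ± 0.10) and Socs2 (1.24 ± 0.16) rose, and Il4ra fell from 721, 789 and 822 to 343, 359.5 and 383 CPM (-1.10 ± 0.07). Of 21 tested inflammatory cytokine receptors (of 26), 7 rose and 7 fell (median 0.06; 0.03 without control replicate 1 to 0.13 with library totals). Csf2rb, the shared chain of the GM-CSF, IL-3 and IL-5 receptors, had 2, 0 and 8 counts in the control libraries and 103, 127 and 237 with TGFβ (5.65 ± 0.72), and Il18rap (-1.16 ± 0.15) and Il12rb2 (-0.64 ± 0.07) fell. Csf2rb is a gene of mast and other myeloid cells, and, like the mast cell proteases, it was highest in TGFβ replicate 3. Its lowest TGFβ library was replicate 1, where that of the proteases Mcpt1 and Mcpt2 was replicate 2.

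Inhibitory receptors were split, 8 higher and 7 lower of 21 tested (of 24), with a median of 0.07 (-0.01 without TGFβ replicate 3 to 0.14 without TGFβ replicate 1). Pdcd1, which encodes PD-1, went from 35.3, 22.3 and 16.2 to 54.2, 52.7 and 51.7 CPM (1.11 ± 0.26), and Cd274, its ligand, rose by 0.67 ± 0.08. Havcr2, which encodes TIM-3, went from 77.4, 47.2 and 36.3 to 26.6, 21.2 and 22.6 (-1.19 ± 0.32), and Lag3 was not called (0.11 ± 0.08). In Pdcd1 the TGFβ libraries were the higher ones and in Havcr2 the control libraries were, with control replicate 1 highest of its group in both. The costimulatory receptors gave 6 higher and 10 lower of 21 tested (of 22), median -0.20 (-0.43 without TGFβ replicate 3 to -0.14 with library totals). Tnfrsf8, which encodes CD30, went from 50.7, 39.3 and 35.2 to 8.54, 7.197 and 7.93 CPM (-2.40 ± 0.13), Slamf6 from 89.7, 106 and 112 to 18.2, 27.96 and 24.7 (-2.12 ± 0.24), and Cd28 fell by 0.66 ± 0.07 on the log2 scale. CD8 identity and T cell receptor genes gave 8 higher and 15 lower of 30, all tested (median -0.15; -0.15 without TGFβ replicate 3 to -0.08 with library totals). Beside Cd8a and Cd8b1, Cd3e rose (0.37 ± 0.07), and Themis (-0.70 ± 0.05), Cd2 (-0.53 ± 0.04) and Ptprc, which encodes CD45 (-0.50 ± 0.05), fell.

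Purinergic genes, which sense and break down extracellular ATP and adenosine, rose in 12 of 20 tested members (of 21) and fell in 4, with a median of 0.40. Nt5e, which makes adenosine from AMP, went from 49.8, 55.8 and 47.5 to 217, 228 and 222 CPM. The adenosine receptor genes moved apart: Adora3 went from 2.48, 1.75 and 2.12 to 23.1, 20.1 and 20.3 CPM (3.32 ± 0.14) and Adora2a, the receptor that restrains T cells, from 66.5, 62.7 and 63.6 to 15.7, 15.5 and 16.9 (-2.003 ± 0.07). P2ry12 had 56, 41 and 59 counts in the control libraries and 1, 1 and 1 with TGFβ, lower by a ratio of 46.8 (95% interval of counting error, 15.7 to 229). Prostaglandin and leukotriene genes gave 3 higher and 4 lower of 16 tested (of 25), median -0.16 (-0.20 with the 6 libraries alone to -0.10 without TGFβ replicate 1). Ltb4r1, the leukotriene B4 receptor, went from 24.9, 20.5 and 24.7 to 5.32, 5.47 and 4.36 CPM (-2.21 ± 0.19), opposite to Hpgds at 5.33, 5.21 and 4.51 against 41.2, 35.5 and 33.2. Semaphorins, plexins, ephrins and their receptors gave 6 higher and 9 lower of 20 tested (of 31), median -0.31, with Sema6d going from 33.9, 18.6 and 12.9 to 298, 268 and 282 CPM (3.71 ± 0.30) and Plxnc1 from 52.3, 53.05 and 51.6 to 13.1, 14.2 and 12.3 (-1.99 ± 0.11). MAPK phosphatases, Sprouty and RGS genes gave 7 higher and 7 lower of 24 tested (of 25), median -0.03 (-0.05 without control replicate 1 to 0.04 with library totals), with Rgs1 higher (1.09 ± 0.15) and Dusp7 lower, at 54.3, 55.6 and 61.04 against 9.804, 10.2 and 12.5 CPM (-2.40 ± 0.08).

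The tested immunoglobulin genes and most MHC class II genes, known from antibody-making and antigen-presenting cells, rose in these T cell cultures. Markers of dendritic cells, which also present antigen, did not follow, with 1 higher and 2 lower of 3 tested. Igha, the constant region of IgA, went from 38, 36 and 45 counts in the control libraries to 10036, 9647 and 8974 with TGFβ (1.43, 1.46 and 1.38 and 384, 397 and 359 CPM), a fold change of 8.06 ± 0.20 (adjusted p = 7.70e-12, chromosome 12, 113254830 to 113260236). Ighm, the constant region of IgM, went from 301, 359 and 401 to 1371, 1387 and 1354 CPM (1.96 ± 0.15), and Ighd from 1.502, 1.34 and 3.68 to 20.1, 22.6 and 22.5 (3.27 ± 0.34). Of the 13 genes of the immunoglobulin list, which holds constant regions and the joining chain gene Jchain, 6 were tested and rose, and 7 did not pass the filter on low counts. Igha, Ighm and Ighd had at least 33 counts in each control library, while Ighg3 and Igkc had at most 7 and may have passed the filter through TGFβ libraries alone. Ighg3 had 0, 1 and 0 counts against 17, 25 and 21, a ratio of 70.0 (95% interval of counting error, 12.1 to 2809). The light chain gene Igkc rose from a low level, at 0.263, 0.122 and 0.123 against 1.84, 2.14 and 2.202 CPM (3.58 ± 0.33). The B cell genes Ms4a1, Pax5, Fcer2a, Cr2 and Blnk had at most 3 counts in each library, while Cd79b, a B cell receptor subunit, was at 12.6, 15.2 and 16.1 against 30.2, 27.6 and 29.3 CPM (0.98 ± 0.10). Cd22, an inhibitory receptor of B cells, fell from 1.92, 2.73 and 1.44 to 0.191, 0.3701 and 0.4805 CPM (-2.52 ± 0.40). The 3 tested plasma cell markers rose: Jchain, which joins IgA and IgM into polymers, from 20, 7 and 23 counts to 197, 155 and 134 (3.43 ± 0.46), Xbp1, a factor of secretory cells, from 87.2, 91.2 and 85.9 to 97.2, 102 and 99.2 CPM (0.17 ± 0.05), and Sdc1, syndecan 1, from 19, 7 and 12 counts to 18, 18 and 42 (1.18 ± 0.41, adjusted p = 0.0335). The groups of Sdc1 overlapped, and it lost its call with the 6 libraries alone (adjusted p = 0.0506), without control replicate 2 (0.113) or 3 (0.110), and without TGFβ replicate 3 (0.225). The part of B cells and plasma cells in the result was not tested.

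MHC class II genes rose in 13 of 18 members, all tested, and 1 fell, with a median of 0.77 (2 fell without the filter, with the replicate block and with the 6 libraries alone). H2-Aa, an α chain, went from 0.601, 0.407 and 1.01 to 24.9, 30.6 and 25.5 CPM (5.26 ± 0.34), H2-Eb1, a β chain, from 0.977, 1.098 and 1.44 to 22.5, 24.96 and 24.1 (4.32 ± 0.20), and Cd74, the invariant chain, from 6.65, 5.45 and 8.81 to 87.2, 98.98 and 105 (3.78 ± 0.27). Ciita, the coactivator that switches these genes on, went from 0.3005, 0.325 and 0.829 to 3.37, 4.19 and 4.08 CPM (2.93 ± 0.28), and Rfx5, a subunit of the factor that binds their promoters, fell (-0.73 ± 0.06, with 26.8% of its exon bases under exons of the other strand). Control replicate 3 was the highest control library for H2-Aa, H2-Eb1, Cd74 and Ciita, and still lay below the 3 TGFβ libraries. The promoters of H2-Aa and H2-Eb1 are printed with their Y box, CTGATTGG, in capitals (51 and 62 bases before the start), a motif chosen after the values were known. Of tested genes with a promoter, 5.95% hold it, against 3.89% of those that rose by 2-fold or more and 4.43% of those that fell so.
H2-Aa, chr17:34287824-34288073, minus strand: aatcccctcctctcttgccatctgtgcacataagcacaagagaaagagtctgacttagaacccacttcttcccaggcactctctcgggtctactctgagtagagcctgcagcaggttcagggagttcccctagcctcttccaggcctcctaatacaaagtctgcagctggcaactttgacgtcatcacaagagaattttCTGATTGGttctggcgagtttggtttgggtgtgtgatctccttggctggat
H2-Eb1, chr17:34305617-34305866, plus strand: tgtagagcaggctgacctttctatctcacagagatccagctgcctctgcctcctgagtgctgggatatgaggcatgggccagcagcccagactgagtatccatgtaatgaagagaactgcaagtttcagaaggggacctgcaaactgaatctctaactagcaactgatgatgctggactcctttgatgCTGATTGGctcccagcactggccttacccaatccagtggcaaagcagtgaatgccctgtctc
Class I genes moved little, 7 higher and 6 lower of 25, all tested (median 0.10; 0.04 without control replicate 1 to 0.17 with library totals). B2m went from 1976, 2159.7 and 2071 to 2734, 2691 and 2787 CPM (0.40 ± 0.05) and H2-D1 rose by 0.35 ± 0.05, while H2-Q10, whose near copies may share its reads, fell (-2.34 ± 0.12).

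Proteases of mucosal mast cells, which share their chromosome 14 locus with granzyme genes, rose as well. Mcpt1 had 2, 5 and 4 counts in the control libraries and 720, 352 and 1231 with TGFβ (7.81 ± 0.79), and its near copy Mcpt2 had 3, 6 and 3 against 492, 218 and 708 (6.98 ± 0.68). The TGFβ libraries differed more than usual, with replicate 3 highest and replicate 2 lowest for both. The 9 mast cell and basophil markers were also higher in sum, but not in the library order of the 2 proteases. Their summed CPM were 16.2, 13.3 and 15.4 in the control libraries and 63.5, 67.0 and 83.5 with TGFβ, lowest in TGFβ replicate 1. Of 8 tested members, 6 rose and 1 fell. Members with few control counts, such as Fcer1a and Ms4a2, may have passed the filter on low counts only through libraries where they were high. They could then only be called higher, so the count of members that rose is no separate result. Kit, the stem cell factor receptor, gave most of the sum in the TGFβ libraries, at 208, 189 and 241 counts against 1433, 1482 and 1665. The defining receptor genes Fcer1a and Ms4a2 had 0, 0 and 5 and 0, 0 and 0 counts in the control libraries and 40, 15 and 71 and 12, 3 and 18 with TGFβ, at least 12.2-fold higher for Ms4a2 against a floor of 3 counts for the control group. Both, with Gata2 (24, 6 and 45) and Cma1 (40, 24 and 95), were highest in TGFβ replicate 3 and lowest in replicate 2, in the order of Mcpt1. Cpa3, the mast cell carboxypeptidase, was at 220, 136 and 223 counts against 59, 60 and 147 and lower (-0.96 ± 0.36, adjusted p = 0.0423, with overlap of the groups and no call in 6 other fits beside the test against 1.5-fold). The part of these cells in the result was not tested.

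**Figure D3:**
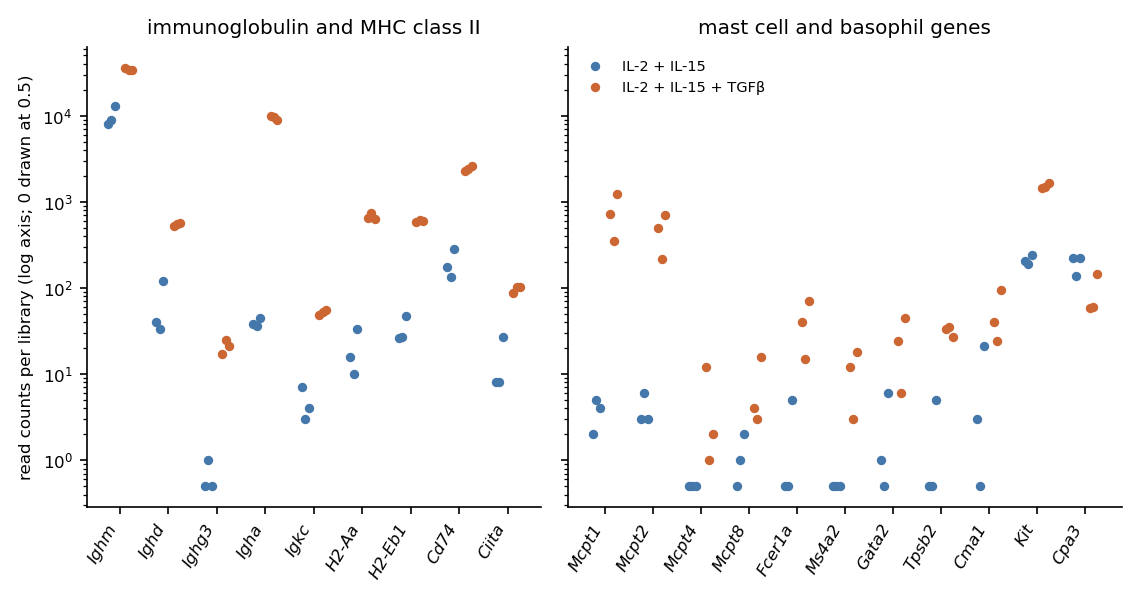
Read counts per library (log axis, with 0 drawn at 0.5) of immunoglobulin and MHC class II genes (left) and of mast cell and basophil genes (right), with a point per library in the order of replicates 1 to 3. Igha goes from 36 to 45 counts to 8974 to 10036 with TGFβ, and among the mast cell genes TGFβ replicate 3, the third point, is the highest for Mcpt1 and Fcer1a.

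Genes of growth fell broadly. Of 88 tested cytosolic ribosomal protein genes (of 91), 83 fell and 0 rose, with a median of -0.69, against 22.4% lower and a median of 0.001 over all genes. Their share of the counts was 8.96% ± 0.299 (SD, n = 3) in the control group and 5.70% ± 0.135 with TGFβ (exact two-sided permutation test, p = 0.1, the smallest that 3 against 3 libraries allow). Rpl12, for example, went from 1945, 1947 and 1901 to 877, 948 and 979.9 CPM (-1.05 ± 0.08), and Rpl32 from 1718, 1556 and 1615 to 809.5, 804 and 831 (adjusted p = 4.47e-07). Of 53 ribosome biogenesis genes and Myc, all tested, 44 fell and 3 rose (median -0.52), and their share went from 0.642% ± 0.00478 to 0.446% ± 0.0112 (p = 0.1 by the same exact test). Myc itself, the driver of growth genes, was at 237, 229 and 229 CPM in the control libraries and 98.8, 105 and 108 with TGFβ (-1.15 ± 0.05, adjusted p = 1.17e-09), and the nucleolar protein gene Npm1 went from 1294, 1293 and 1296 to 524, 596 and 577 (-1.19 ± 0.08). The 3 genes that rose, Max, Mxd1 and Mxd4, encode the shared partner of Myc and proteins that compete with it.

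Amino acid transport and ATF4 target genes fell in 19 of 28 tested members (of 32) and rose in 2, with a median of -0.35 (1 rose without control replicate 1 or 3 and without TGFβ replicate 2 or 3). Slc7a5, a leucine carrier, went from 98.3, 107 and 106 to 36.5, 37.4 and 34.8 CPM (-1.52 ± 0.07), and Asns, asparagine synthetase, from 40.8, 45.3 and 38.9 to 13.5, 15.96 and 15.5 (-1.47 ± 0.09). Of 35 aminoacyl-tRNA synthetase genes, all tested, 20 fell and 3 rose (median -0.22; 13 fell with library totals), with Wars going against the rest, from 77.8, 90.5 and 89.2 to 168, 194 and 187 CPM (1.09 ± 0.07). Glycolysis and lactate genes fell in 23 of 27, all tested, and rose in 0 (median -0.49), and their share of counts went from 0.759% ± 0.00812 to 0.548% ± 0.0112 (p = 0.1, exact). The glucose carrier Slc2a3 went from 285, 310.5 and 323 to 129, 139.6 and 135 CPM (-1.19 ± 0.06) and hexokinase 2, Hk2, from 48.6, 46.9 and 45.01 to 21.3, 21.8 and 19.8 (-1.16 ± 0.07). Hypoxia-inducible factors and their targets gave 13 lower and 1 higher of 23 tested (of 25), median -0.19 (2 higher with library totals), with Hif1a (-0.52 ± 0.07) and Car12, a carbonic anhydrase (-2.05 ± 0.12), among those lower. Cholesterol and fatty acid synthesis genes fell in 23 of 39, all tested, and rose in 7 (median -0.34). Abca1, which exports cholesterol, rose from 11.98, 15.3 and 14.002 to 47.6, 51.9 and 50.5 CPM (1.86 ± 0.11).

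Division genes fell by small amounts. Of 41 DNA replication genes, all tested, 30 fell and 2 rose (median -0.34; 18 fell without TGFβ replicate 2), and of 47 mitosis genes, all tested, 22 fell and 0 rose (median -0.31). The mitosis count was 8 without control replicate 1 and without TGFβ replicate 2, 11 without TGFβ replicate 3, and 34 in the fit of the 6 libraries alone. Mki67, the proliferation marker, was at 608, 567 and 614 against 434, 410.0 and 392 CPM (-0.53 ± 0.13), and Mcm3, a helicase subunit, went from 187, 179 and 173 to 122, 112 and 123 (-0.59 ± 0.07). CDK inhibitors and D-type cyclins gave 4 higher and 8 lower of 21 tested (of 23), median -0.09 (-0.14 without TGFβ replicate 1 to -0.02 without TGFβ replicate 2; 8 higher with library totals). Ccnd1, cyclin D1, rose from 0.263, 0.447 and 0.276 to 3.29, 4.65 and 6.81 CPM (3.90 ± 0.35), and Trp53inp1, a stress response gene, from 306, 313 and 323 to 666, 645 and 619 (1.03 ± 0.06). BCL2 family genes gave 4 higher and 6 lower of 19 tested (of 22), median 0.13 (0.08 without TGFβ replicate 1 to 0.19 with library totals, where 7 were higher; 1 higher without control replicate 3 or TGFβ replicate 1), with the death genes Bid (-0.79 ± 0.08) and Bbc3 (-0.74 ± 0.09) lower and Mcl1 higher (0.22 ± 0.05).

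Genes of the mitochondrion and proteasome moved less. Of 76 tested mitochondrial ribosomal protein genes (of 77), 24 fell and 0 rose, with a median of -0.14 (-0.15 without control replicate 3 to -0.07 with library totals; 15 fell with library totals and without control replicate 1, and 4 rose with library totals). Of 78 tested nuclear respiratory chain genes (of 82), 18 fell and 4 rose (median -0.08; -0.10 without TGFβ replicate 1 to -0.01 with library totals; 10 fell with library totals and without control replicate 1, and 9 rose with library totals, 2 without control replicate 3 and 1 without TGFβ replicate 1). Of 12 tested mitochondrially encoded genes (of 13), 4 fell and 0 rose (median -0.27), and of 37 tested proteasome subunit genes (of 39), 7 fell and 0 rose (median -0.06; -0.10 without control replicate 3 to 0.001 with library totals, where 2 fell and 3 rose; 3 or 4 fell without the filter, control replicate 1 or TGFβ replicate 1 or 2). Their shares of the counts went from 0.236% to 0.226% (exact p = 0.2), 0.650% to 0.629% (0.4), 1.87% to 1.66% (0.1) and 0.403% to 0.403% (1.0) in that order. In the 8 gene lists with a count of 0 in 1 direction by edgeR's quasi-likelihood test, the Wald test of DESeq2 also called 0 there. Other alternatives did not keep each 0. Mitochondrial ribosomal protein genes gave 1 higher with DESeq2 size factors, the replicate block or the 6 libraries alone, and 2 without control replicate 1. Proteasome subunit genes gave 1 higher with the replicate block, the 6 libraries alone, and without control replicate 1 or 2 or TGFβ replicate 2. At an unadjusted p under 0.05 by edgeR, 1 mitochondrial ribosomal protein gene and 1 proteasome subunit gene were higher, and the count stayed at 0 in the other 6 lists. Lysosome and V-ATPase genes went the other way, 23 higher and 3 lower of 45 tested (of 46), with a median of 0.18. The cholesterol exporter of the lysosome Npc1 went from 177, 162 and 172 to 259.7, 240.2 and 260.1 CPM (0.57 ± 0.07), and Psap, the precursor of saposins, rose by 0.46 ± 0.04.

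Interferon-stimulated genes moved both ways. Of 63 tested (of 64), 16 rose and 27 fell, with a median of -0.08 (-0.18 without control replicate 1 to -0.01 with library totals). Mx1, an antiviral GTPase, went from 94.8, 85.2 and 78.4 to 13.4, 10.7 and 8.09 CPM (-3.001 ± 0.21), Oas3, a sensor of double-stranded RNA, from 339.7, 383 and 355 to 147, 153 and 138 (-1.30 ± 0.09), and Slfn5 from 26.4, 24.9 and 22.9 to 3.41, 3.21 and 2.402 (-3.04 ± 0.21). Irf1 and the GBP and IRG family genes such as Gbp2 and Igtp, which respond to interferon gamma, were among those that rose, Irf1 from 339, 382 and 401 to 506, 553 and 539 CPM (0.51 ± 0.08). The plot of the gene lists sets the shares called in each list beside those over all genes.

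**Figure D4:**
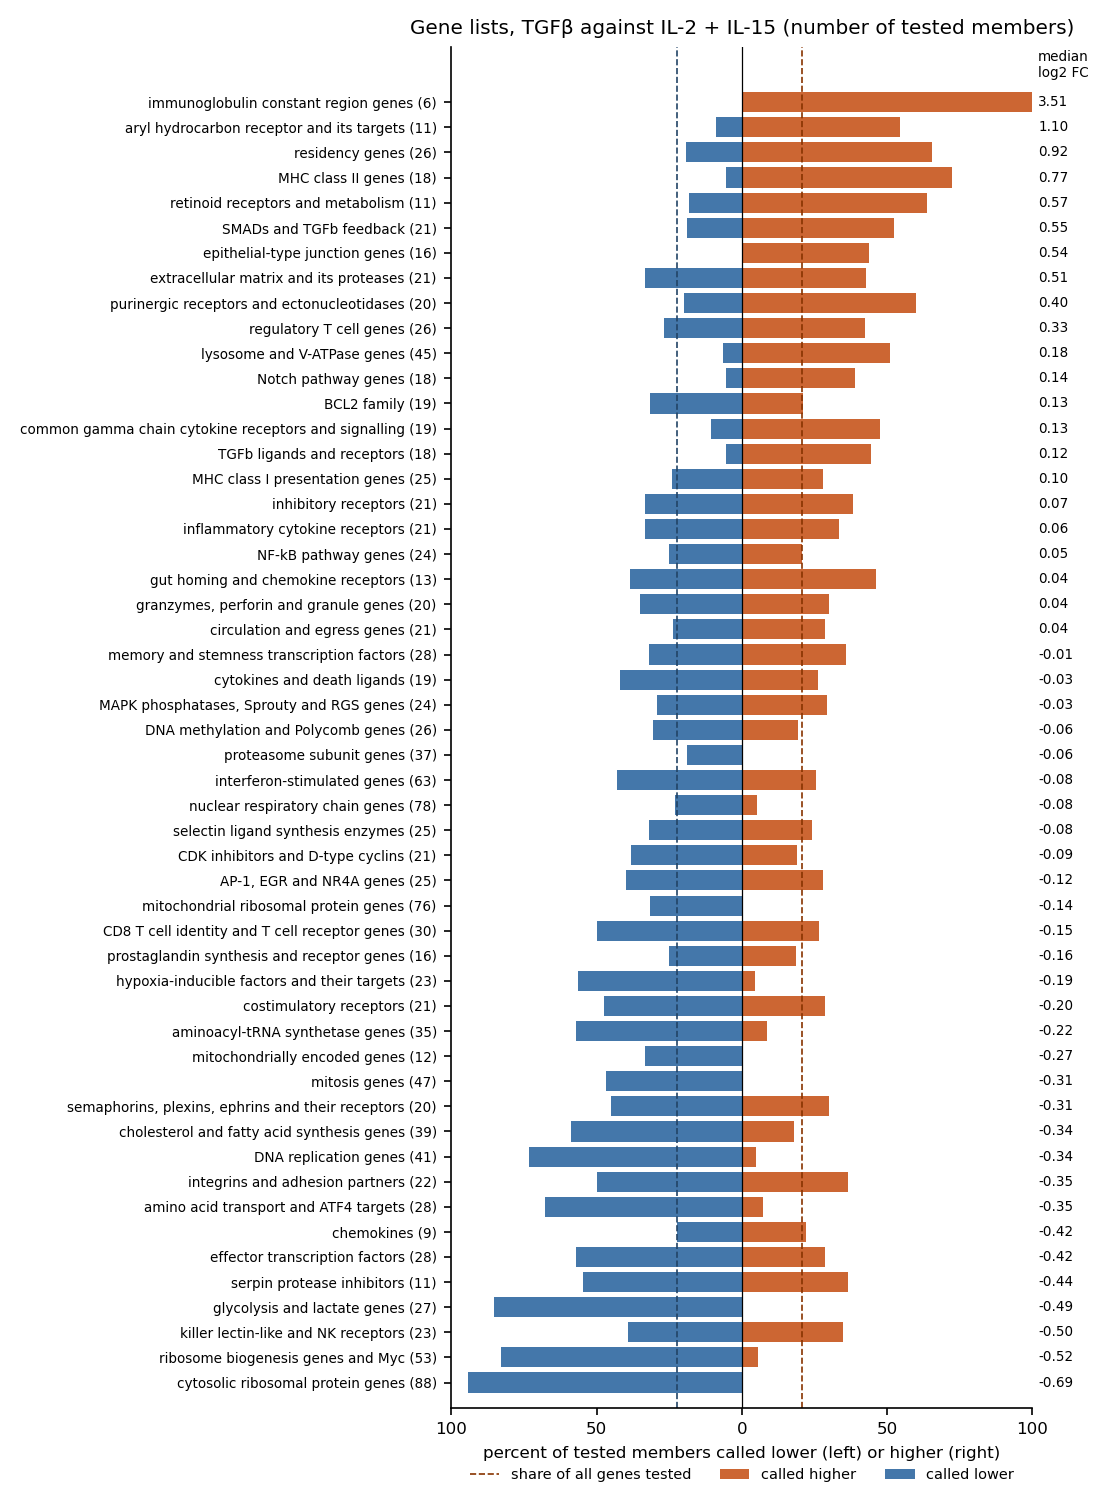
Share of the tested members of each of the 52 gene lists called higher (to the right) or lower (to the left) with TGFβ, in percent, with the number tested in brackets and the median log2 fold change at the right edge. Dashed lines mark the shares over all tested genes, 20.7% higher and 22.4% lower; lists are ordered by their median, from immunoglobulin constant region genes at 3.51 to cytosolic ribosomal protein genes at -0.69.

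Whether TGFβ acted the same way in the presence of RA was asked with the other 6 libraries, which share no sample with the comparison above. Both comparisons came from the same fit of all 12 libraries, so their calls share the estimate of each gene's spread. Of the 2899 genes that rose, 2143 (73.9%) also rose with TGFβ in RA cultures, 135 (4.66%) fell there and 621 (21.4%) were not called, where 60.2% of all tested genes were called in RA cultures, 29.4% higher and 30.8% lower. Of the 3135 that fell, 2573 (82.1%) also fell, 61 (1.95%) rose and the other 501 were not called. The test of the difference itself, an interaction in the same fit, was called for 2702 genes (19.3%), with a more positive effect in RA for 6.95% and a more negative one for 12.3%. Without RA replicate 3 it was called for 4158. Itgae was at 188 ± 78.8 CPM (mean ± SD, n = 3) with RA and 3158 ± 121 with TGFβ and RA, a change of 4.07 ± 0.25 against 4.35 ± 0.25 without RA (interaction adjusted p = 0.584, not called).

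Several of the largest changes differed with RA, though picking genes by their change without RA tilts this difference. Ace was at 0.201 ± 0.0661 CPM with RA and 0.165 ± 0.0212 with TGFβ and RA (-0.26 ± 0.48), so that its rise was not seen there (interaction -10.25 ± 0.75, adjusted p = 2.06e-06). Gpr15 changed by 1.10 ± 0.45 with RA against 6.26 ± 0.17 without it (interaction adjusted p = 0.000117), and Cdh1 by 3.57 ± 0.26 against 5.80 ± 0.31 (0.00121). Foxp3 went the other way and rose more with RA, by 8.80 ± 0.22 against 5.91 ± 0.20 (0.000675). Ccl5 and Heatr9 did not fall in RA cultures, with changes of 0.31 ± 0.20 and -0.16 ± 0.13 (interaction adjusted p = 8.70e-06 and 2.02e-06). Il10 rose by 2.51 ± 0.54 with RA against 5.58 ± 0.24 without it (0.0251), a difference that lost its call without RA replicate 2 (adjusted p = 0.0557) or 3 (0.312). Prf1 fell by less there, by 1.88 ± 0.26 on the log2 scale (0.0162). Igha (7.53 ± 0.19), Apol9b (8.72 ± 0.21), Ldlrad4 (3.64 ± 0.07), Skil (1.85 ± 0.06) and Smad3 (-1.76 ± 0.05) changed in both settings without a called difference.

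**Figure D5:**
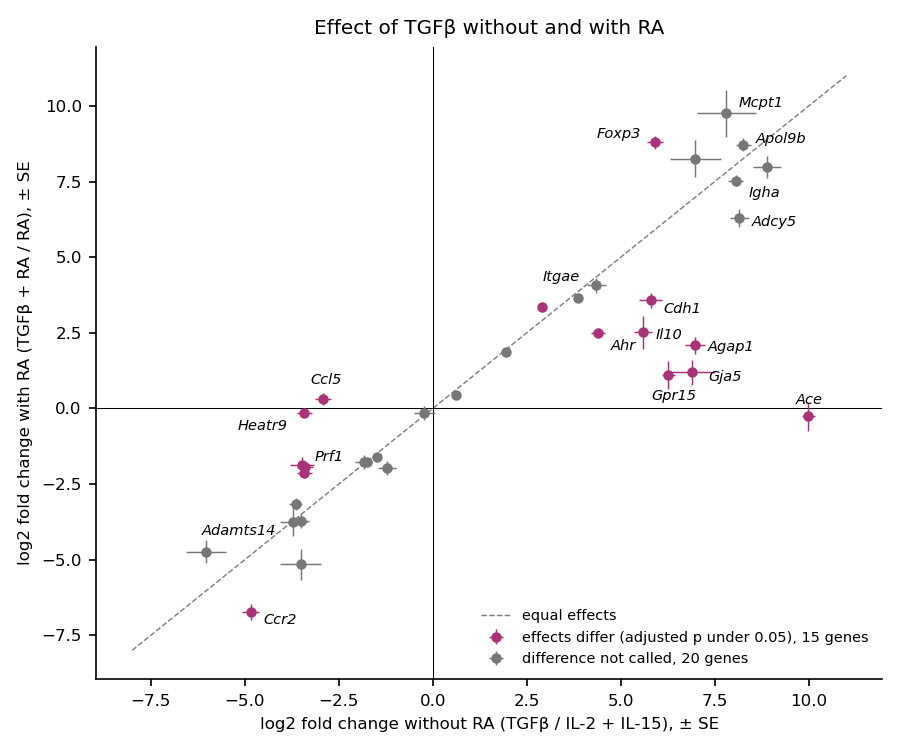
Log2 fold change ± SE of TGFβ in RA cultures (vertical axis) against that without RA (horizontal axis) for the 16 panel genes and the 10 highest and 10 lowest genes averaging 5 CPM or more, 35 in all, with a dashed line where both are equal. The interaction was called for 15 of them (purple), among them Ace, at 9.99 without RA and -0.26 with it, and not for the other 20 (grey).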

How the data were processed

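Gene counts per library, deposited by the authors as raw whole numbers, were used from 12 RNA-seq libraries, 3 per group. Per the labels, RNA came from an RNeasy Micro kit and libraries from a TruSeq stranded mRNA kit. Per the submitters' processing notes, reads went through STAR and featureCounts on GRCm38. Versions, annotation release and strand setting are not given in the sources used here.

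Counts were analysed with edgeR 4.0.16 (R 4.3.3). Genes passing filterByExpr (minimum count 10, by group) were kept, 14009 of 46078, holding 99.9% or more of every library's counts. TMM scaling, 1 mean per group over all 12 libraries (8 residual degrees of freedom), the quasi-likelihood test and Benjamini-Hochberg adjustment followed, and an adjusted p under 0.05 was called. Fold changes carry a prior count of 0.125, and SEs were derived as fold change divided by √F. For genes with few counts in 1 group, such SEs can be too small. Library totals were 18300206 to 33477037, the depth behind each value. The difference of the TGFβ effect with and without RA came from the same fit. The script was tested on simulated counts. Shares of counts were compared with exact permutation tests.

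Alternatives were DESeq2 size factors, library totals, no filter, DESeq2 1.42.0 with its Wald test, a replicate block, a test against 1.5-fold (glmTreat), the 6 libraries alone, and each replicate left out. Coordinates came from GENCODE M21 (GRCm38), where 98.0% of identifiers were found, and promoters from RefSeq (GRCm38.p6). For 4652 of 9595 tested genes, the RefSeq start opens a GENCODE transcript.

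The gene lists, panel and markers were chosen with earlier results of these data known. Named genes were the lead genes of each list, the panel, the 10 highest and 10 lowest called changes at a mean of at least 5 CPM without overlap, and the most significant called members of each list (up to 5, and up to 2 against its majority). Of 388 such genes many are given within counts only, and some others, chosen after their values were seen, are named for their role.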

Additional observations from a re-analysis of the deposited data

Results flagged for a closer look

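The effect of TGFβ with RA minus that without RA was called for 15 of the 35 genes tested one by one, the 16 panel genes and the 10 highest and 10 lowest, where 19.3% of all tested genes were called (edgeR's quasi-likelihood test, Benjamini-Hochberg adjusted). The 10 highest and 10 lowest were picked by their change without RA, which is part of the difference. The panel was chosen with earlier results known. The count of 15 can thus not be measured against the share over all genes. The difference was negative on the log2 scale for Ace (-10.25), Gja5 (-5.71), Gpr15 (-5.16), Agap1 (-4.88), Il10 (-3.07), Cdh1 (-2.23) and Ahr (-1.90), genes that rose without RA. It was also negative for Ccr2 (-1.88), which fell without RA and fell further with it. It was positive for Heatr9 (3.26), Ccl5 (3.23), Prf1 (1.60), Serpinb6b (1.46) and Edaradd (1.27), which fell without RA, and for Foxp3 (2.89) and Pmepa1 (0.45), which rose without it. The difference of Il10 lost its call without RA replicate 2 or 3.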

How the results depend on the processing

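Of the 6034 genes called, 5983 were also called with DESeq2 size factors, 5448 with library totals, 5503 without the filter, 5725 with the Wald test of DESeq2 and 5770 with the 6 libraries alone. A test against 1.5-fold called 1225 genes, 620 higher and 605 lower. Replicate numbers are shared between the groups. The libraries with the same number deviated together only weakly (correlations of 0.173, 0.101 and 0.0494), though each value was the highest for that TGFβ library. The labels do not tie replicates to separate animals, and whether equal numbers mark paired libraries was not tested. With the replicate block 6381 genes were called, 5966 of them shared. Leaving out 1 library gave 5074 to 5476 calls, 2451 to 2631 higher and 2613 to 2845 lower, with 669 to 732 rising and 535 to 634 falling by 2-fold or more. The difference with and without RA was called for 2040 to 4158 genes when 1 library was left out. Library totals moved the median of all genes to 0.065, and the list medians moved with it. With 1 library left out, the fold change ran from -0.99 to 1.46 for Ifng, -1.43 to 1.49 for Ccl3, -0.38 to 0.0115 for Itga1 and -0.0350 to 0.0334 for Trac, each turning sign without control replicate 1 (Trac also without TGFβ replicate 1), and with the replicate block it was 0.0167 for Ifng. None of these 4 was called with all libraries. The cause was not tested. Genes with few counts in 1 group are limited by counting error.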
